A study of Mus musculus with 74 samples.

Results

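This account concerns mice of the C57BL/6 strain that carry 2 null copies of Aire (genotype Aire -/-) set against mice of the same strain with 2 normal copies (Aire +/+). It covers 7 of the 74 libraries of the series, chosen by title and genotype label: wild-type libraries wt_430, wt_432 and wt_434, and Aire-/- libraries KO_428, KO_429, KO_431 and KO_436. Library wt_438 is left out of every comparison, because its title calls it wild type and its genotype field calls it Aire -/-. The mice were 4 to 7 weeks old, the labels name no agent, and the cells were mTEChi, sorted from thymi dissociated with Liberase TH and DNase. The 5 Aire+/- libraries of the same table entered the fit for the spread, and they also entered the filter on low counts. Whether each library is 1 mouse, and what the null allele lacks, is not given in the sources used here, so p-values measure the spread between these libraries.

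AIRE is a nuclear regulator made at a high level by mature epithelial cells of the thymic medulla. Those cells transcribe many genes whose products otherwise belong to single organs, and they show the resulting peptides to developing T cells, which removes or diverts clones that recognise the body's own tissues. People and mice without working AIRE develop autoimmunity against several organs. The comparison asks what the messenger RNA of these cells looks like when no copy of the gene is normal.

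Depth was 1690548 to 2742381 counts per wild-type library and 1947129 to 3618266 per Aire-/- library, each count being a tag near the 3′ end of a transcript. Levels are in CPM, counts relative to the scaled library size, given in the order wt_430, wt_432, wt_434 for wild type and KO_428, KO_429, KO_431, KO_436 for Aire-/-. A gene was called when edgeR's quasi-likelihood test gave a Benjamini-Hochberg adjusted p under 0.05 over the 12700 genes tested of 15991 listed. Fold changes are log2 of Aire-/- over wild type. The standard error (SE) beside them was derived from the test, as the size of the log2 change over the square root of the F statistic. Epcam and Fezf2 were read as markers of thymic epithelium. Other markers of medullary epithelium moved, H2-Aa and Cldn4 upward and Krt5 downward (given below). The markers therefore do not show that the sorted cells matched between groups. Epcam, an epithelial adhesion molecule, stood at 131, 138 and 154 CPM in wild type and 129, 133, 114 and 125 in Aire-/- and did not pass the test. It was called lower under scaling by total counts (log2 change -0.27). Fezf2, a transcription factor of medullary epithelium, stood at 1155, 947 and 1090 against 1357, 1236, 1239 and 1303 with a log2 change of 0.27, called here but not without library wt_432 (0.19) or under scaling by total counts (0.16). All 3 wild-type libraries read more Xist than Y-linked genes. So did 3 of the 4 Aire-/- libraries, while library KO_429 showed the opposite.

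The test called 4650 genes, 36.6% of those tested, and the calls were close to even in number, with 2252 higher (17.7%) and 2398 lower (18.9%) in Aire-/-. Scaling by total counts in place of TMM factors moves the median log2 change of all genes by -0.107 and gives 1650 higher and 3075 lower calls, so the higher share of calls drops from 48.4% to 34.9%. The directions differed in size. At least 2-fold lower genes numbered 1294 (10.2%) and at least 2-fold higher genes 598 (4.71%). The former count was 1962 with DESeq2 and 2068 with no filter on low counts. At 4-fold there were 740 lower against 63 higher, and at 8-fold 457 against 5. The 1294 lower genes were rare transcripts, with a median of 11 CPM in wild type. Together they held 3.88% of the wild-type signal and 0.874% of the Aire-/- signal. The 598 higher genes had a median of 38.0 CPM in Aire-/- and went from 2.99% to 7.11% of the signal. The ranges of the groups did not overlap for 5291 of the tested genes, 41.7%, and this held for 1232 of the 1294 lower and 578 of the 598 higher genes.

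Direction depended on expression level. Of the 159 tested genes with a mean under 3 CPM, 76.7% were called lower and 1.26% higher. Genes that rare pass the filter on low counts through a group in which they are high, so this bin could hold few unchanged genes. The filter used all groups, Aire+/- included, and the same can hold for part of the bin from 3 to 10 CPM. From 3 to 10 CPM the shares were 25.7% lower and 6.11% higher, from 10 to 30 CPM 16.4% and 13.7%, and from 100 to 300 CPM 14.2% and 33.5%. Above 300 CPM 19.5% were lower and 35.5% higher.

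**Figure D1:**
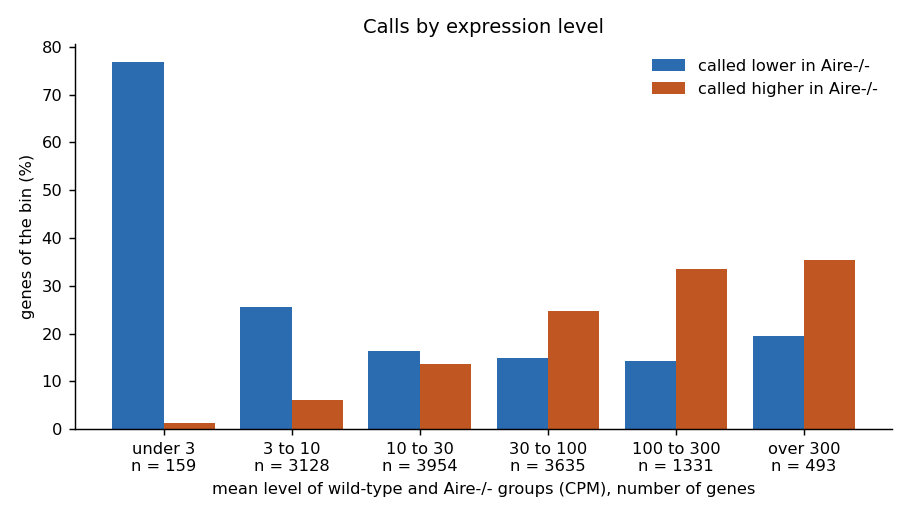
Share of tested genes called lower (blue) and higher (orange) in Aire-/- libraries, in % of each bin, by the mean level of the compared groups in CPM, with the number of genes in each bin. Lower calls lead in the rare bins, with 76.7% under 3 CPM, and higher calls lead from 30 CPM upward. The filter on low counts bears on the shares of the rare bins.

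Fewer genes were detected in Aire-/-. With each library thinned to 1425904 counts, 15614 ± 29.5 genes (SD, n = 3) had at least 1 count in wild type and 14626 ± 68.2 (SD, n = 4) in Aire-/-, a difference of -988 genes. The groups did not overlap, and the exact two-sided permutation test gave p = 0.0571, the smallest value that 3 against 4 libraries allow. Counting genes with at least 3 counts gave 14414 ± 3.51 against 12981 ± 89.5 (SD).

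Aire itself, on the minus strand of chromosome 10 (78030022 to 78043610, mm10), was read in every library. Its level was 2073, 2158 and 2013 CPM in wild type and 3789, 2839, 3549 and 3125 in Aire-/-. The 4 Aire-/- libraries thus all lay above the wild-type libraries, and the change was 0.68 ± 0.14 (log2, SE; edgeR adjusted p = 0.00197). A tag near the 3′ end does not check a deletion elsewhere in the gene, so Aire counts do not check these labels. Dnmt3l, the catalytically inactive partner of the DNA methyltransferases, starts inside Aire on the opposite strand and shares 1664 bases with it. It stood at 47.7, 33.7 and 36.1 CPM against 165, 173, 169 and 192, a rise of 2.13 ± 0.16 (log2, SE). The shared stretch holds the 5′ ends of both genes, whereas tags are read near the 3′ ends. Whether the counting used strand is not given in the sources used here, so any reads within that stretch cannot be told apart. Icosl, the next gene, encodes the ligand of the costimulatory receptor ICOS and rose from 232, 241 and 199 to 422, 324, 407 and 385 CPM. Within 1 Mb on each side, 23 genes were tested, with 3 higher and 3 lower and a median log2 change of -0.05, against -0.01 over all genes. Within 2 Mb there were 3 higher and 11 lower of 58 (median -0.14). The share called was 26.1% in the narrower window and 24.1% in the wider one, against 36.6% of all genes tested.

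Hormones, digestive enzymes and secreted proteins of other organs were among the deepest falls. Lists of organ-restricted genes held 390 genes, of which 262 were tested. Of these 179 fell (68.3%), 27 rose and 56 did not pass, and the median log2 change was -1.98. In bulk libraries, fewer cells that make a transcript and less of it per cell cannot be told apart. Of islet and gut hormones, 15 of 19 tested fell and 1 rose, with a median of -3.67. Ins2, which encodes insulin, had 27.9, 37.8 and 44.2 CPM in wild type and 0, 0, 0 and 0.292 in Aire-/-. That is 231 counts against 1, a ratio of 361 with a 95% counting interval of 64.2 to 14300. Ppy, pancreatic polypeptide, went from 101, 92.4 and 107 CPM to 0.402, 1.65, 1.61 and 2.63. Iapp, the islet amyloid peptide that is released with insulin, moved less, from 35, 48.8 and 60.5 to 12.9, 10.7, 3.76 and 7.01 CPM. In all 3 genes every Aire-/- library lay below every wild-type library.

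Neuropeptide and pituitary hormone genes fell in 18 of 22 cases and rose in 1 (0 without wt_430), with a median of -3.31. Their summed level was 659 to 749 CPM in wild type and 129 to 147 in Aire-/-. Sums of the other organ lists fell in some and not in others. That of milk, salivary and lacrimal genes rose from 1899 to 1950 CPM in wild type to 2168 to 2368. The sum of brain and myelin genes rose from 892 to 977 to 1369 to 1564. Gal, the galanin gene, was at 88.3, 126 and 107 CPM against 2.41, 5.77, 3.23 and 2.04. Oxt, which encodes oxytocin, was at 56.9, 97.7 and 48.8 against 2.82, 2.47, 0.538 and 0.876. The range of Oxt in wild type was wide, and the groups did not overlap.

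Pancreatic acinar enzymes fell in 14 of 20 cases and rose in none (median -2.48). Ctrb1, a chymotrypsinogen, was at 93.9, 86.6 and 82.9 CPM against 4.02, 7.01, 6.45 and 5.55. Library KO_436 stood apart within this list. Prss2, a trypsinogen, reached 59.3 CPM there and at most 5.36 in the other Aire-/- libraries, and the elastase gene Cela2a reached 13.1 against at most 1.08. Neither gene was called, but without KO_436 both were called lower (log2 change -3.83 for Prss2 and -4.28 for Cela2a). Liver plasma proteins and enzymes fell in 19 of 25 cases and rose in none (median -2.67). Cyp1a2, a drug-metabolising cytochrome P450, was at 37.8, 32.0 and 54.9 CPM against 1.21, 1.65, 1.61 and 1.17. Ttr, the carrier of thyroid hormone, was an exception: 141, 47.1 and 77.8 against 65.6, 55.7, 69.9 and 58.1 CPM, overlapping and not called.

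Gut secretory and Paneth cell genes fell in 21 of 26 cases and rose in 2 (median -1.86), or in 1 without wt_430, wt_432 or KO_429. Tff3, the goblet cell trefoil peptide, dropped from 153, 165 and 167 CPM to 5.23, 7.01, 3.76 and 2.63. Reg3g, an antibacterial lectin, kept part of its level, at 1628, 1488 and 1696 against 535, 448, 450 and 488 CPM. Fcgbp, a mucus protein that binds the Fc part of IgG, went the other way, from 1918, 1712 and 1911 to 3947, 4907, 3733 and 4389 CPM (log2 change 1.20 ± 0.09, SE). It was thus among the largest rises in absolute level. Enterocyte genes fell in 11 of 18 cases and rose in 3 (median -1.06). Fabp6, the ileal bile acid binding protein, was at 280, 322 and 289 CPM against 47.5, 57.3, 64.0 and 35.6. The intestinal cadherin Cdh17 was at 47.3, 55.8 and 58.5 against 144, 132, 142 and 116.

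Milk, salivary and lacrimal secretory genes fell in 16 of 18 cases (median -4.39). The caseins divided. Csn2, beta casein, rose from 949, 896 and 1006 CPM to 1763, 1716, 1829 and 1876. Its neighbour Csn1s2a fell from 42.7, 26.7 and 44.8 to 0.805, 1.65, 5.38 and 0.876, and Csn1s1 fell too. Lipocalins, carriers of small fatty molecules, fell in 6 of 6 tested cases (median -5.06). One of them, the odorant binding protein gene Obp2a, was at 67.1, 73.3 and 65.6 CPM against 2.01, 2.89, 2.15 and 2.04.

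Genes of lens and retina fell in 14 of 17 cases and rose in 2 (median -2.33), or in 1 without KO_428, KO_429 or KO_431 or after thinning. Among those that fell was Cryaa, the alpha crystallin of the lens, at 92.5, 89.5 and 73.7 CPM against 2.41, 0.825, 0.538 and 2.04. Rgr, of the same list, rose from 0.353, 1.16 and 1.02 CPM to 9.65, 12.8, 5.38 and 4.09. Its log2 change of 3.26 ± 0.62 (SE) was the largest rise among the named genes. Muscle and heart genes fell in 16 of 27 cases and rose in 2 (median -0.97). Myh4, the myosin heavy chain of fast muscle fibres, rose from 31.4, 27.9 and 40.7 CPM to 148, 156, 132 and 147, while Ckm, muscle creatine kinase, fell from 25.4, 12.8 and 21.9 to 7.24, 5.36, 7.53 and 5.84. Brain and myelin genes fell in 11 of 17 cases and rose in 3 (median -1.34). Sncg, gamma synuclein, rose from 208, 216 and 233 to 810, 987, 820 and 801 CPM.

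Germ cell genes were closer to even, with 7 lower and 5 higher of 15 (median -0.55). The zona pellucida genes, which encode the coat of the egg, split: Zp2 rose from 39.9, 43.6 and 64.6 CPM to 188, 214, 150 and 187. Zp3 fell from 17.3, 29.1 and 26.4 to 0.805, 1.65, 0 and 0.876, and Zp1 fell too. Among 7 tested autoantigens of type 1 diabetes 4 fell and 2 rose (median -0.74). Ptprn2, a protein of insulin granules, rose from 17.7, 20.9 and 15.8 CPM to 67.6, 58.5, 31.7 and 60.4, whereas its relative Ptprn fell from 14.8, 15.7 and 20.3 to 9.65, 11.1, 11.3 and 8.76. The log2 change of Ptprn was -0.74, with the call lost without library wt_434 (-0.59) or KO_436 (-0.66) and after thinning to equal depth (-0.55). Gad1, a glutamate decarboxylase, overlapped between groups and was not called. Of 19 tested mouse orthologs of human APS-1 organ autoantigens 9 fell and 2 rose (median -0.31), or 1 rose without wt_430, wt_434 or KO_429. Dense-core granule and neuroendocrine genes fell in 3 of 10 cases and rose in 3 (median -0.33). Only 1 of the latter was higher without wt_432, wt_434 or KO_429 or after thinning. In the islet and gut hormone list the exception was Calcb, a calcitonin gene related peptide, at 532, 513 and 563 CPM against 1113, 857, 1014 and 986.

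**Figure D2:**
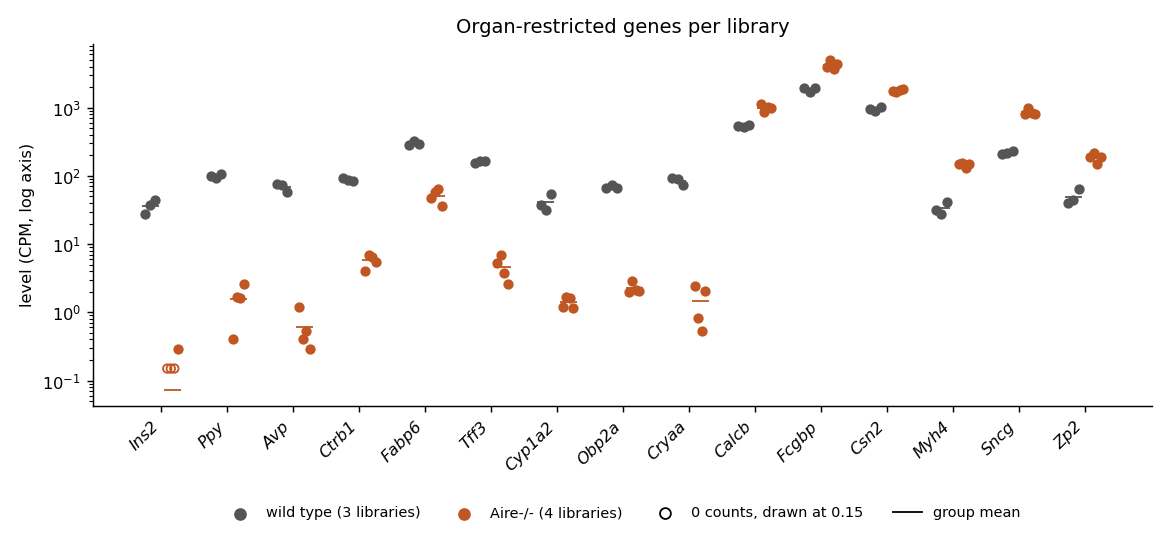
Level in CPM (log axis) of 15 organ-restricted genes, 1 point per library, with wild type in grey (3 libraries), Aire-/- in orange (4 libraries) bars for group means and open points for 0 counts. The 9 genes on the left lie lower in every Aire-/- library than in any wild-type library, and the 6 on the right, from Calcb to Zp2, lie higher. The genes were picked with their values known, and 41.7% of all genes tested showed no overlap.

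Genes that fell often lay beside each other, and so did genes that rose. Of the at least 2-fold lower genes that could be placed on the genome, 1270 in number, 40.5% had an adjacent tested gene that was also at least 2-fold lower, against 16.0% of the other placed genes. For the 580 placed higher genes the shares were 24.7% and 8.35%. In both directions the gap was present in 4 of 4 level bins. Over 100 CPM it was 62.1% of 29 lower genes against 15.5%, and 34.2% of 114 higher genes against 9.63%. Runs of 4 or more adjacent lower genes numbered 27 and held 148 genes. In these runs the call for Crct1 was lost without any single one of the 7 libraries (log2 change -1.69 to -1.33). That for Tspan32 was lost without wt_430, wt_432, wt_434, KO_428 or KO_431 (-1.54 to -1.23). The longest run, 14 genes on chromosome 3 from 92583867 to 93019060, holds Smcp, Crct1, 2310050C09Rik and genes of the Lce family, which builds the outer envelope of skin cells. Its summed level was 135 to 153 CPM in wild type and 16.1 to 19.6 in Aire-/-. A run of 10 kallikreins, serine proteases of skin and glands, spans 43690418 to 43885804 on chromosome 7, from Klk14 to Klk4. It summed to 285 to 377 CPM against 40.9 to 67.2. Across the family 21 of 23 tested kallikreins fell and none rose, and reads of the near-identical Klk1b copies may be shared among them.

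On chromosome 17, from 25298394 to 25374442, the 6 genes from Prss34 to Tpsg1 include the mast cell tryptases Tpsab1 and Tpsb2. The run summed to 133 to 178 CPM against 2.63 to 5.91. A run of 6 on chromosome 7 joins H19, Igf2, Ins2 and Th, which encodes tyrosine hydroxylase, with Ascl2 and Tspan32. It summed to 118 to 161 CPM against 4.83 to 25.3, the highest of these in library KO_431, where the noncoding RNA H19 was at 20.4 CPM against at most 5.77 in the others. Higher genes formed 2 such runs, both on chromosome 17. One runs from H2-Eb2 to BC051142 and includes the butyrophilin-like genes Btnl2 and Btnl1, and it summed to 418 to 506 CPM against 1081 to 1255. The other holds Abcc10, Zfp318, Crip3 and Slc22a7 and summed to 587 to 671 CPM against 1536 to 2085.

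The largest relative rises were of rare transcripts. Fam19a1, which encodes a secreted brain peptide, was at 3.53, 2.91 and 5.09 CPM against 31.4, 35.9, 28.0 and 28.9 (log2 change 2.997 ± 0.27, SE). Ctla4, the receptor by which T cells restrain CD28 signals, was at 7.77, 5.23 and 4.07 against 58.7, 59.8, 38.2 and 54.6 CPM. Of 16 tested thymocyte markers 1 rose, Tcf7, and none fell (median 0.13; 2 were higher without KO_436), and their sum was 242 to 307 CPM in wild type and 270 to 386 in Aire-/-. Ptgs2os2, a long intergenic noncoding RNA named after Ptgs2, rose from 1.41, 2.91 and 1.53 CPM to 9.25, 18.1, 18.8 and 14. Ptgs2, the inducible prostaglandin synthase, rose from 217, 194 and 228 to 501, 491, 546 and 516. A link between these rises was not tested.

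Among abundant transcripts Neat1, the noncoding scaffold of nuclear paraspeckles, was at 524, 603 and 684 CPM against 1911, 2268, 2068 and 1864 (log2 change 1.75 ± 0.10, SE). Mt1, a metal-binding metallothionein, was at 860, 821 and 760 against 2167, 2977, 2252 and 2023. Of 15 tested S100 genes, small calcium-binding proteins, 10 rose and 4 fell (median 0.67). S100a6 rose from 404, 412 and 385 CPM to 1266, 1409, 1186 and 1166, and S100g from 381, 399 and 429.2 to 1302, 1298, 1156 and 1255. The pair S100a8 and S100a9 fell, S100a8 from 885, 1299 and 673 to 93.3, 122, 190 and 93.2.

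MHC class II molecules carry peptides to CD4+ T cells, and their genes respond to the coactivator CIITA at promoters that hold an X box and a Y box, the latter a CCAAT element. Of 16 tested genes of this pathway 12 rose, 1 fell and 3 did not pass (median 0.52). The 160 bases before the start of 4 of the genes that rose are given from RefSeq (GRCm38.p6), 5′ to 3′ along the gene, with CCAAT or its reverse complement ATTGG in capitals.
H2-Aa, chr17:34287824-34287983, minus strand: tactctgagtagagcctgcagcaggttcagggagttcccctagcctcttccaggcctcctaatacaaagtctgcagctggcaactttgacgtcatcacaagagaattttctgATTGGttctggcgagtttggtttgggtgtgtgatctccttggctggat
H2-Eb1, chr17:34305707-34305866, plus strand: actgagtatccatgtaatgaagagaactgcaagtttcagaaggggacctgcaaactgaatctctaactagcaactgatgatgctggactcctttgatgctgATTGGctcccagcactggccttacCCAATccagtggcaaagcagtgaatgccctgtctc
H2-DMb1, chr17:34153031-34153190, plus strand: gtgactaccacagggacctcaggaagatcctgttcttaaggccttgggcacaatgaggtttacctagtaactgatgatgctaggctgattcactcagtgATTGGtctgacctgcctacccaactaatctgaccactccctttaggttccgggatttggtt
H2-Ob, chr17:34238745-34238904, plus strand: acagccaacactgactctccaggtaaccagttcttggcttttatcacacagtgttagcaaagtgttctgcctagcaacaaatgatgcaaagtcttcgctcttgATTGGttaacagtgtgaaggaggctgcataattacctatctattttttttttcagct
The match lies 48 bases before the start in H2-Aa, 61 in H2-DMb1 and 57 in H2-Ob, and H2-Eb1 has 2, at 59 and 35. Both strands were searched over 250 bases. Of the 13 tested genes of the list with a promoter in the table, CCAAT was found in 8 of 9 that rose, in 0 of 1 that fell and in 2 of 3 that did not pass. It was found in 33.8% of all 32851 promoters, so the letters alone are common.

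H2-Aa, a chain of the peptide-binding dimer, was at 9462, 9697 and 10322 CPM in wild type and 16992, 11219, 13348 and 16258 in Aire-/-. Library KO_429 was the lowest of the Aire-/- libraries here and still lay above the wild-type libraries. H2-Ob, part of the DO inhibitor of peptide loading, rose by the largest factor in the list, from 23.3, 22.7 and 23.9 to 61.5, 60.2, 54.8 and 51.4 CPM. Ciita was at 83.7, 62.2 and 73.2 against 109, 101, 111 and 102 CPM, and Rfx5, which binds the X box, at 37.4, 35.5 and 34.6 against 70.8, 72.2, 61.8 and 61.0. The protease genes of the pathway split. Ctss, cathepsin S, rose from 283, 249 and 353 to 550, 499, 526 and 549 CPM, and Ctsl, cathepsin L, fell from 320, 266 and 296 to 177, 143, 258 and 190. The call for Ctsl (log2 change -0.63) was lost without library wt_430 (-0.55), wt_434 (-0.62) or KO_428 (-0.59).

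Other MHC class II-bearing cells were read beside this. Of 22 tested macrophage and dendritic cell markers 8 rose and 4 fell, with a median of -0.10, and their summed level was 3225 to 3596 CPM in wild type and 4316 to 4790 in Aire-/-. Batf3, a dendritic cell transcription factor, rose from 27.9, 37.8 and 42.2 to 124, 143, 106 and 129 CPM. Spi1 and Itgam, which define myeloid cells, fell, Itgam from 8.83, 9.30 and 11.2 to 2.82, 3.71, 1.61 and 2.63. Among 6 tested B cell markers 2 rose (1 without wt_430) and 1 fell. The sum was 390 to 473 CPM in wild type and 562 to 589 in Aire-/-, most of it Blnk. Ptprc, the leukocyte marker CD45, was at 5.30, 12.2 and 15.8 against 11.3, 12.0, 14 and 7.59 CPM, overlapping and not called. The part of these cells in the MHC class II result was not tested.

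RANK and CD40 signal through NF-kB and drive the maturation of medullary epithelium. Of 26 tested genes of the RANK, CD40 and NF-kB pathway 13 rose and 2 fell (median 0.33), with 0 lower without wt_430 or KO_429 or after thinning, and 1 without wt_432, wt_434 or KO_428 or with DESeq2. Map3k14, the kinase of the noncanonical pathway, was at 81.9, 83.1 and 87 CPM against 197, 192, 177 and 199. Relb, its transcription factor, was at 396, 417 and 407 against 566, 505, 561 and 563. Cd40 did not pass, at 373, 377 and 378 against 385, 254, 406 and 380 CPM, with library KO_429 lowest. Costimulatory and inhibitory ligands rose in 6 of 12 cases and fell in 2, and Cd86 went from 15.5, 19.2 and 14.7 CPM to 25.3, 30.5, 26.9 and 26.0. Claudins and other tight junction genes, which seal epithelial sheets, rose in 9 of 20 cases and fell in 1 (median 0.28), with 0 lower without wt_434 and 2 without KO_428. Cldn4 was at 133, 130 and 135 CPM against 350, 310, 281 and 326. Of 17 MHC class I and antigen processing genes 4 rose and 3 fell, beside 17.7% and 18.9% of all genes tested. Their median of 0.10 becomes -0.01 when libraries are scaled by total counts. Only 1 of them was lower without wt_430, wt_432, wt_434, KO_428, KO_429 or KO_431, and also with DESeq2, a sex term or no filter on low counts, while 5 were under scaling by total counts.

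**Figure D3:**
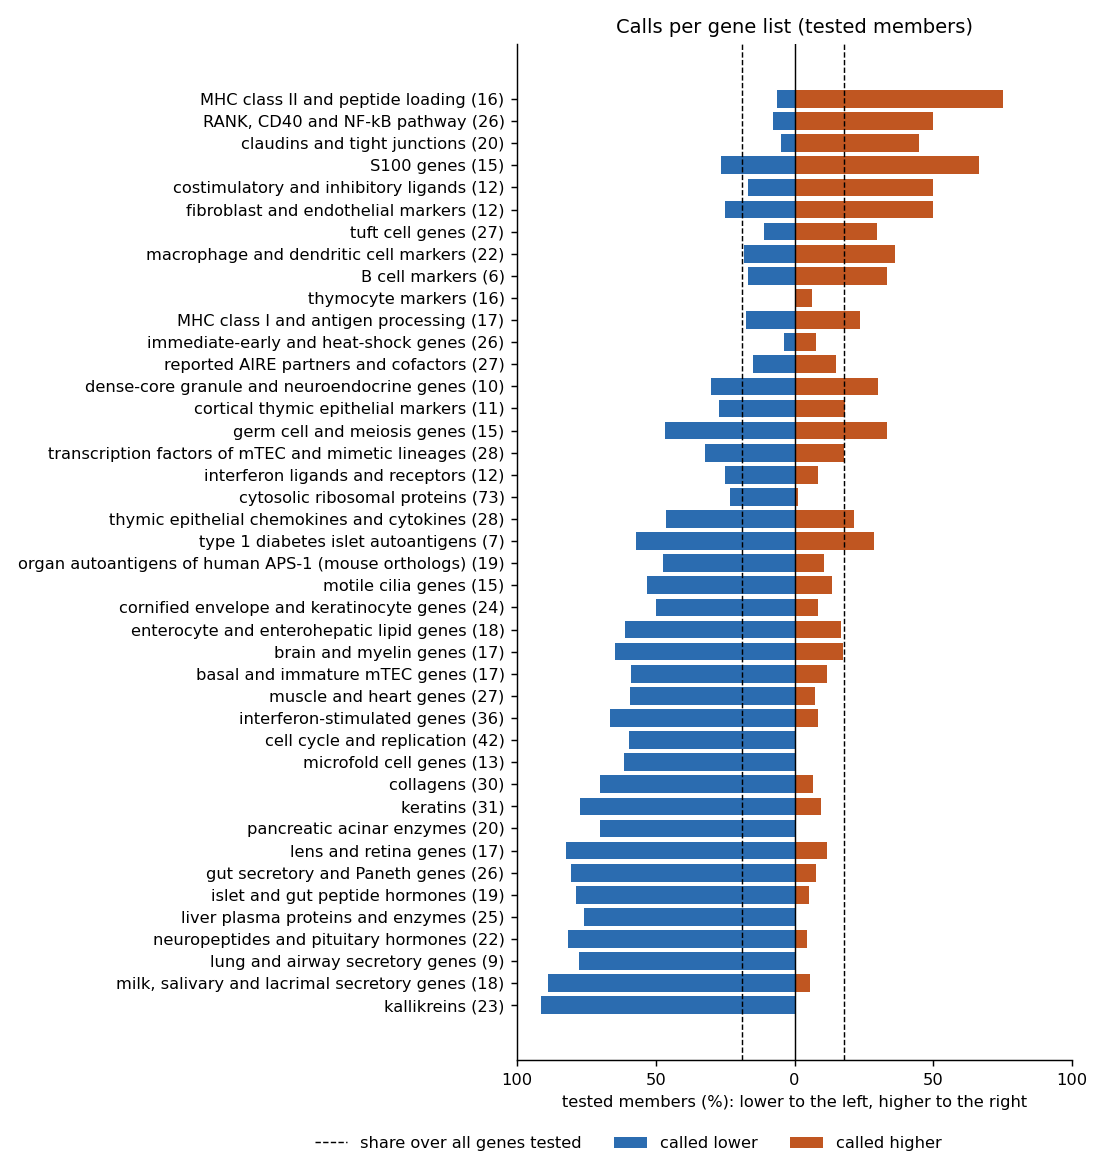
Share of tested members of each gene list called lower (blue, leftward) and higher (orange, rightward) in Aire-/- libraries, in %, with the number tested in parentheses and dashed lines at the shares over all genes tested, 18.9% lower and 17.7% higher. Kallikreins and secretory genes of other organs lie at the lower end and MHC class II at the upper. Scaling by total counts turns the medians of MHC class I, cortical markers and interferon ligands negative.

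Interferon-stimulated genes went down, with exceptions. Many such genes carry a promoter element of paired GAAA blocks, to which IRF proteins bind. The form searched was GAAA, any 2 bases and GAAA again, on both strands. Of 36 tested 24 fell, 3 rose and 9 did not pass (median -0.98), and the sum was 3974 to 4015 CPM in wild type and 2834 to 2913 in Aire-/-. The same 160 bases of 3 genes that fell and of Ifit1, which rose, are shown. The element, or TTTC, any 2 bases and TTTC on the reverse strand, is in capitals.
Isg15, chr4:156200819-156200978, minus strand: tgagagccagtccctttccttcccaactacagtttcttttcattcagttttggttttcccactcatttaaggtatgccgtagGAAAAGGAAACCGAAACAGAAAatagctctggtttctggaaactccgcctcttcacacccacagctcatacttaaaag
Ifit3, chr19:34583369-34583528, plus strand: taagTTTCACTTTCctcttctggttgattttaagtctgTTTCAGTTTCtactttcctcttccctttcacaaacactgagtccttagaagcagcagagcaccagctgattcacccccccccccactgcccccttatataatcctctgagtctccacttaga
Rsad2, chr12:26456453-26456612, minus strand: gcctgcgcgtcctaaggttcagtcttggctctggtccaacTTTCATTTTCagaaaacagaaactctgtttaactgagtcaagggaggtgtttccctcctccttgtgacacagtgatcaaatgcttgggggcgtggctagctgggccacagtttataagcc
Ifit1, chr19:34640729-34640888, plus strand: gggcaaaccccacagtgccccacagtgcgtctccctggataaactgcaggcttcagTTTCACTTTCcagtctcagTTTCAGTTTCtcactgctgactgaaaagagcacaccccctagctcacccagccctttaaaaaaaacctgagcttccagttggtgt
Isg15 holds 3 overlapping matches, 78, 72 and 66 bases before its start, Ifit3 has 2 at 156 and 122, Rsad2 has 1 at 120 and Ifit1 has 2 at 104 and 85. Over 250 bases, 2.98% of all 32851 promoters hold the element. Genes that fell and a gene that rose both hold it.

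Isg15, a ubiquitin-like protein, was at 184, 192 and 189 CPM against 56.3, 65.1, 66.7 and 71.3 (log2 change -1.53 ± 0.16, SE). Ifit3, of the family that binds viral RNA, was at 31.4, 33.7 and 30.5 against 7.24, 5.77, 7.53 and 8.18, though reads may be shared with its near copy Ifit3b. Rsad2, the antiviral enzyme viperin, was at 11.7, 18.0 and 19.3 against 3.22, 3.71, 3.23 and 2.92. Ifit1, a relative of Ifit3 on the same chromosome, rose from 176, 165 and 165 CPM to 281, 326, 273 and 238. Irf1 rose from 182, 144 and 188 to 251, 270, 269 and 267, while Irf7 fell from 192, 223 and 221 to 102, 104, 91.9 and 113. Of 12 tested interferon ligands and receptors 1 rose and 3 fell, with a median of 0.02 that becomes -0.08 under scaling by total counts. There was 1 lower without wt_430, wt_432 or KO_429 and after thinning. Of all genes tested, 17.7% were higher and 18.9% lower.

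Cell cycle and replication genes fell in 25 of 42 cases and rose in none (median -0.65). Mki67, a marker of dividing cells, was at 93.2, 82.6 and 98.7 CPM against 48.3, 28.9, 60.7 and 44.1, lowest again in library KO_429. Top2a, which untangles DNA before division, was at 62.9, 48.8 and 69.2 against 27.0, 19, 39.2 and 36.8. Genes of basal and immature medullary cells fell in 10 of 17 cases and rose in 2 (1 without wt_430, wt_434, KO_428, KO_429 or KO_431), with a sum of 10299 to 10614 CPM against 6711 to 7665. Krt5, a basal keratin, was at 1096, 1047 and 1017 CPM against 469, 375, 510 and 555. Across the keratin family 24 of 31 fell and 3 rose (median -1.12), those 3 being Krt8 and Krt18, the pair of simple epithelia, and Krt79. Krt18 rose from 1702, 1598 and 1693 to 3285, 2884, 2401 and 2874 CPM. Collagens fell in 21 of 30 cases and rose in 2 (median -0.96), or in 1 without wt_432, wt_434 or KO_429. Cytosolic ribosomal proteins were lower in 17 of 73 cases and higher in 1, beside 18.9% and 17.7% of all genes tested. Changes in this family were small, such as -0.36 ± 0.07 (log2, SE) for Rpl8. Scaling by total counts gives 42 lower calls in the family.

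**Figure D4:**
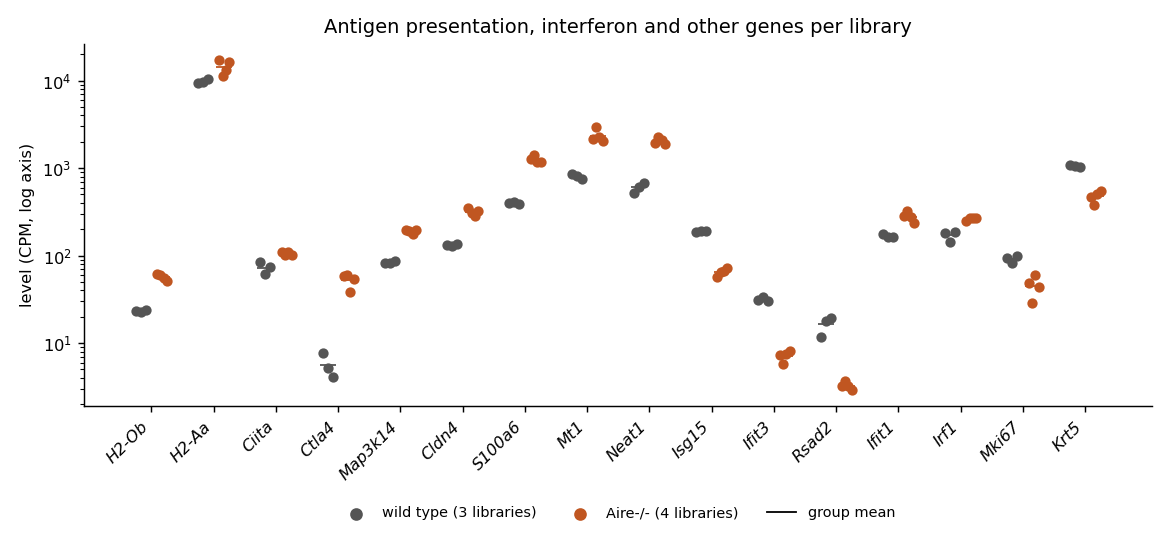
Level in CPM (log axis) of 16 genes of antigen presentation, signalling, interferon response, division and basal cells, 1 point per library, with wild type in grey (3 libraries), Aire-/- in orange (4 libraries) and bars for group means. The genes were picked with their values known, and members of the same lists that overlap, such as Cd40, are not drawn. In 16 of 16 the groups do not overlap, against 41.7% of all genes tested. Ifit1 and Irf1 lie above and Isg15, Ifit3 and Rsad2 below wild type.

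Chemokines and cytokines of thymic epithelium fell in 13 of 28 cases and rose in 6 (median -0.43). Ccl25, which draws thymocyte precursors, rose from 634, 637 and 581 CPM to 1576, 1216, 1147 and 1006. Ccl20 fell from 169, 209 and 200 to 58.7, 91.9, 102 and 100, and Ccl19 overlapped and was not called. Il15, a growth factor of natural killer and memory T cells, rose from 81.2, 71.5 and 88 CPM to 188, 178, 182 and 174. Cortical markers showed 2 higher and 3 lower of 11, beside 17.7% and 18.9% of all genes tested. There were 0 lower without library wt_430 or after thinning, and 1 without wt_432 or KO_436. Their median of 0.07 becomes -0.04 under scaling by total counts. Their sum was 2361 to 2396 CPM in wild type and 4394 to 5593 in Aire-/-, most of it Ccl25 and Tbata. Prss16, a thymus-specific protease, was at 60.0, 62.2 and 69.2 against 116, 84.9, 169 and 82.3 CPM, without overlap, and did not pass. It was called higher with DESeq2 (log2 change 0.82, adjusted p = 0.0345) and without KO_436 (0.94, edgeR adjusted p = 0.0476).

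Part of the medulla is made of mimetic cells, thymic epithelial cells that copy the programs of other tissues. Tuft cell genes rose in 8 of 27 cases and fell in 3 (median 0.44), but 3 were higher without library wt_430, 4 without wt_432, wt_434, KO_429 or KO_436, and 5 after thinning to equal depth. Bmx, a tyrosine kinase, was at 9.89, 15.7 and 11.2 CPM against 38.2, 38.3, 28.5 and 35.6, and Alox5, which starts leukotriene synthesis, at 25.1, 25.0 and 28.5 against 54.3, 73.0, 46.2 and 64.5. Pou2f3, the factor that defines tuft cells, was at 4.59, 6.98 and 5.59 against 6.84, 5.36, 4.84 and 6.42 and did not pass. Microfold cell genes fell in 8 of 13 cases and rose in none, with Gp2, a receptor for bacteria, at 86.2, 83.7 and 59.0 CPM against 22.9, 51.5, 19.4 and 24.8 (log2 change -1.36, and -1.25 with the call lost without library wt_430). Spib, the transcription factor of that lineage, was at 816, 705 and 754 against 709, 592, 764 and 733 and did not pass. Motile cilia genes fell in 8 of 15 cases (5 without library wt_430, 4 after thinning) and rose in 2, whereas Foxj1, their transcription factor, rose from 66.8, 65.7 and 67.1 to 85.3, 127, 82.8 and 91.4 CPM. Cornified envelope and keratinocyte genes fell in 12 of 24 cases and rose in 2 (median -1.01), with 0 higher without wt_432 or wt_434 and 1 without wt_430, KO_429 or KO_436.

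Lineage transcription factors as a list fell in 9 of 28 cases and rose in 5 (median -0.07), or in 3 without wt_432. Hoxb13 went from 24.7, 14.5 and 19.8 CPM to 0, 0, 0 and 0.292, and Sox10, of neural crest and glia, from 11.3, 19.2 and 14.2 to 0, 0.412, 1.61 and 0.584. Insm1, of endocrine cells, rose from 251, 282 and 293 to 471, 450, 551 and 468. Of 27 tested genes for reported AIRE partners and cofactors 4 rose, 4 fell and 19 did not pass. Beside the lineage factors, this list and the next, 17.7% of all genes tested were higher and 18.9% lower. Immediate-early and heat-shock genes, which respond to handling, rose in 2 and fell in 1 of 26. There was 1 higher without wt_434 or KO_429, and there were 2 lower without wt_434 or KO_431 and 3 without KO_436.

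Markers of other cells moved in both directions. Fibroblast and endothelial markers rose in 6 of 12 cases and fell in 3. Without library wt_432 or KO_429 there were 2 higher, and without wt_434 or KO_436, with DESeq2, after thinning or under scaling by total counts 3. Dcn, a matrix proteoglycan, was at 65.3, 47.1 and 48.3 CPM against 160, 155, 101 and 151. Col1a1, the main collagen of fibroblasts, was at 44.9, 54.6 and 43.2 against 7.64, 17.7, 10.8 and 9.05. Their summed range overlapped, at 430 to 529 CPM and 408 to 506. Erythroid markers summed to 58.3 to 94.6 CPM against 21.7 to 30.6. The embryonic globin gene Hbb-y fell from 25.8, 36.6 and 68.1 to 0.402, 0.825, 1.61 and 0.584.

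Genes of granulocytes were also read, from lists drawn up after the values were seen. Of 10 tested neutrophil granule genes 5 fell and none rose. Their sum was 221 to 801 CPM in wild type, highest in library wt_432, and 23.7 to 207 in Aire-/-, highest in library KO_431. S100a8 was highest in the same 2 libraries. Of 10 tested mast cell genes 8 fell, among them the protease Mcpt4 from 14.8, 15.1 and 16.3 CPM to 0, 0, 0.538 and 0. The other 2 rose: Kit, the stem cell factor receptor, from 31.1, 30.2 and 30.003 to 65.6, 59.0, 62.4 and 76.2, and Hdc, which makes histamine, from 941, 831 and 849 to 1737, 1349, 1569 and 1703. The part of such cells in the organ gene results was not tested.

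Other C57BL/6 lines of the series carry the Aire mutations Y86C, C442G or C313X, each with its own wild-type libraries (3 each) and 3, 6 and 3 homozygous libraries. In a joint fit of 43 libraries, heterozygotes included, over 14547 genes, the homozygous effect in the null line was set against that in each line. It differed for 291 genes from Y86C (2.0% of those tested), for 423 from C442G (2.91%) and for 392 from C313X (2.69%). The null effect was the higher in 129 genes (0.887%) and the lower in 162 (1.11%) against Y86C, in 197 (1.35%) and 226 (1.55%) against C442G, and in 114 (0.784%) and 278 (1.91%) against C313X. These counts depend on the libraries fitted: with only the 2 lines in the fit they were 747 for Y86C and 55 for C313X. Leaving out wt_430, wt_432, wt_434 or KO_429 lowered each of them, to between 140 and 172 for Y86C, 217 and 251 for C442G, and 182 and 234 for C313X. Without KO_436 they were 194, 325 and 257. Of the 1900 genes at least 2-fold lower in the null line in this fit, 88.6% were also so in Y86C, which is 63.8% of the lower genes of Y86C. The shares were 87.1% and 65.6% for C442G, and 78.3% and 70.3% for C313X. Of all genes tested, 18.1% were at least 2-fold lower in Y86C, 17.4% in C442G and 14.5% in C313X. Of the 630 higher genes, 65.7% were also at least 2-fold higher in Y86C (40.7% of its own), 51.9% in C442G (45.2%) and 54.1% in C313X (32.9%). Of all genes tested, 6.99%, 4.97% and 7.11% were so in these lines.

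Levels set side by side across lines are CPM scaled with TMM factors computed over all 43 libraries, so those of the null line differ slightly from its CPM elsewhere. Cd200, a surface protein that quiets myeloid cells, averaged 19.4 ± 6.46 CPM (SD, n = 3) in wild type and 9.74 ± 2.21 (n = 4) in Aire-/- of the null line. It averaged 14.9 ± 4.64 and 25.1 ± 5.49 (n = 3 each) in Y86C, so the effects differed by -1.75 ± 0.36 (log2, SE; edgeR adjusted p = 0.00511). In C442G the difference was -1.88 ± 0.34. Tg, thyroglobulin, stood at 15.7 ± 1.82 and 9.38 ± 0.749 CPM in the null line and at 14.8 ± 0.917 and 33.5 ± 7.52 (n = 6) in C442G, a difference of -1.92 ± 0.33. Hp, the haemoglobin scavenger haptoglobin, was at 36.7 ± 9.02 and 8.42 ± 2.25 CPM in the null line and at 75.7 ± 21.4 and 1.47 ± 1.03 in C442G, a difference of 3.55 ± 0.56.

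Some differences went with unlike wild-type levels. Spock3, a matrix proteoglycan, stood at 59.8 ± 6.66 and 153 ± 5.11 CPM in the null line and at 7.32 ± 5.41 and 96.2 ± 25.0 in C313X, a difference of -2.56 ± 0.35 (adjusted p = 4.71e-05). The microRNA locus Mir7078 averaged 4.38 CPM in wild type of the null line and 60.4 in wild type of C442G, and 43.7 and 48.6 in their homozygotes. Each line comes in a deposited table of its own, and whether the lines were sequenced together is not given in the sources used here, so line and library set cannot be told apart.

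**Figure D5:**
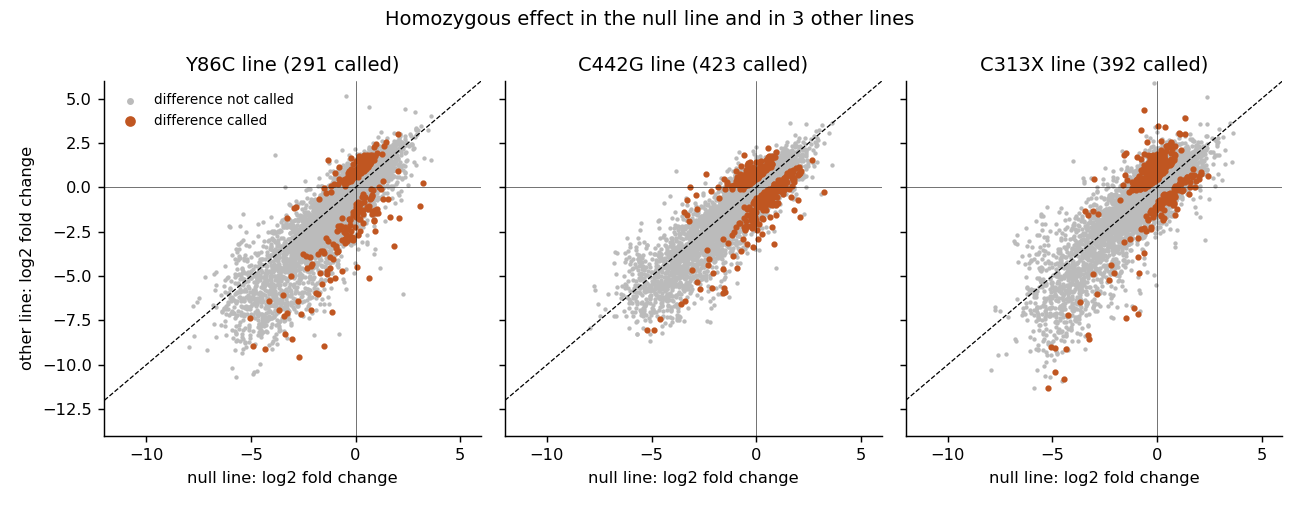
Log2 fold change of homozygotes over wild type in the null line (x axis) and in the Y86C, C442G and C313X lines (y axis), 1 point per gene, with genes whose effects differed in orange (291, 423 and 392) and the rest in grey. The dashed line marks equal effects. Called differences lie on both sides of it.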

How the data were processed

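RNA of sorted mTEChi was sequenced from the 3′ end with the bulk MARS-seq protocol, per the labels' protocols. The submitters' processing notes name bcl2fastq, cutadapt, STAR 2.4.2a, HTSeq, DESeq2 and mm10. The values used are the deposited raw counts per gene. The deposited normalised and fold change columns were not used. Whether the authors removed duplicate molecules or counted by strand is not given in the sources used here. Groups come from the titles, and library wt_438 has none because its title and genotype field disagree.

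Counts were fitted with edgeR 4.0.16 (R 4.3.3): TMM factors, filterByExpr, robust quasi-likelihood fit over wild type, Aire+/- and Aire-/-, Benjamini-Hochberg adjustment over 12700 genes, and calls at 0.05. CPM are counts over TMM-scaled library sizes. TMM factors were 1.02 to 1.04 in wild type and 0.938 to 0.977 in Aire-/-. No libraries agreed within sampling noise. The joint fit used genes listed in all 4 tables. The script was tested on simulated data.

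The comparison and the gene lists were chosen with earlier results of these data known. Named genes are Aire and its neighbours, the 10 largest changes each way by log2 fold and by CPM, list members (up to 8 called, 3 opposite, 3 not passing), up to 6 joint differences each way per line, and genes of the promoters and runs described; some list members beyond these limits were chosen after their values were seen. Lists are described by counts and medians, with no set test. Genes with 0 counts in a group were also set at a floor of 3 counts, which left every list median as it was. Promoters come from RefSeq (GRCm38.p6) by symbol. They matched 79.5% of all tested genes, 76.3% of those at least 2-fold lower and 74.4% of those at least 2-fold higher, under 80%, so the comparison of promoter features between sets is void, as is that of the interferon list (72.2% matched). Alternatives were DESeq2 1.42.0, other scalings, filters and sample sets, a sex term, thinning and leaving out each library.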

Additional observations from a re-analysis of the deposited data

Results flagged for a closer look

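In 15 of 127 named genes checked, 1 Aire-/- library lay apart from the other 3, by Dixon's test on the gap over the group's range. Chance flags about 1 in 20 groups. Library KO_429 was the one apart in 6 genes: it was low in Relb (505 CPM, the next being 561), and high in Gp2 (51.5, next 24.8), Obp2a (2.89, next 2.15), Sncg (987, next 820), Spi1 (35.9, next 18.8) and Zfp318 (164, next 137). Library KO_436 was high in Cela2a (13.1, next 1.08) and Prss2 (59.3, next 5.36). Dcn was low in library KO_431 (101, next 151) and Irf1 in library KO_428 (251, next 267). In Ins2, Hoxb13 and Nhlh2 (0.292 CPM, library KO_436), Mcpt4 (0.538, library KO_431) and Tpsab1 (1.21, library KO_428) the library apart was the single one with any count.

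The null effect differed by the test of the difference itself from that of Y86C in Cd200 (-1.75, log2), from that of C442G in Cd200 (-1.88), Tg (-1.92), Hp (3.55) and Mir7078 (3.51), and from that of C313X in Spock3 (-2.56).

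Outside the compared libraries, Nhlh2 had 7880 counts in heterozygote 85 of the C442G line, where the other libraries of that line had 0 to 2.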

How the results depend on the processing

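The 4 counts of called genes stayed within 1.5 times under every alternative run, apart from genes at least 2-fold lower, which numbered 1962 with DESeq2 over its own genes and 2068 with no filter on low counts. With single libraries left out, higher calls ranged from 1854 to 2182, lower calls from 2104 to 2282, and those at least 2-fold from 541 to 626 and 1249 to 1328. Aire stayed higher and called. Detection of genes at 3 counts gave a difference of -1434. With single libraries left out, detection at 1 count gave -1021 to -971. Among all called genes in place of those with 2-fold change, 47.7% of lower and 45.3% of higher genes had an adjacent gene of the same set, against 29.98% and 28.7% of others. Differences between lines were the least stable: 747 genes for Y86C and 55 for C313X with only the 2 lines fitted, and, with single libraries left out, 140 to 264 for Y86C, 217 to 406 for C442G and 182 to 365 for C313X. The cause was not tested. Of the 126 named genes checked, 114 kept their call and direction in every alternative that tested them, 7 lost the call in at least 1 and none reversed. Not all were tested in each: with only wild type and Aire-/- in the fit 123 were. Nhlh2 was not tested in that fit or after thinning. The rest gained a call: Cela2a and Prss2 without KO_436, Prss16 without KO_436 or with DESeq2, and Epcam and Spib under scaling by total counts. No paired analysis was possible because the compared groups share no replicate numbers. Depth limits rare genes most: those under 3 CPM passed the filter through a group where they are high. Some genes from 3 to 10 CPM can have done so too.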

Other observations

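Library wt_438, titled wild type with the genotype Aire -/-, was placed in no group. Genes at least 2-fold lower in Aire-/- made up 4.14% of its counts, where wild type had 3.55 to 4.46%, Aire+/- 3.03 to 3.63% and Aire-/- 0.824 to 0.909%. Its Ins2 level was 67.1 CPM of total counts (wild type 28.8 to 44.8, Aire-/- 0 to 0.276).

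Nhlh2, a transcription factor of neurons, was read in few libraries. In wild type it had 0 counts in library wt_430, 9433 in wt_432 and 846 in wt_434, and the Aire-/- libraries had 0, 0, 0 and 1. Library wt_438 had 9427. The fitted log2 change of -13.63 ± 2.88 (SE; edgeR adjusted p = 0.00452) was called although the ranges overlap, and it stayed called, at -10.42, without library wt_432 (adjusted p = 0.0106). Jchain, which joins antibody chains, reached 45.3 CPM in library wt_434 and at most 7.56 in the other wild-type libraries.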
